A study of Mus musculus with 3 samples.

Results

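Neutrophil granule genes were described by the stage at which the neutrophil lineage makes their products. The set held 10 genes, 4 of primary granules (Elane, Ctsg, Prtn3 and Mpo) and 6 of later granules (Camp, Ltf, Ngp, Lcn2, Mmp8 and Mmp9). The members were given as a list of gene names, and every probe set annotated to them was used. They had 11 of 45101 probe sets and were 10 of 12597 measured genes, where a measured gene reached the floor of 110.4, the median of all signals, on at least 1 array. All 10 passed on each of the 3 arrays, so none was lost to the filter.

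The arrays held RNA of mouse LSK cells, the lineage-negative, Sca-1-positive, Kit-positive fraction of blood-forming cells that contains stem cells and multipotent progenitors. There was 1 array from wild-type cells (WT), 1 from cells with p53 -/- (p53 KO) and 1 from cells with p53 -/- and Mef -/- (DKO), where Mef is the ETS factor encoded by Elf4. The groups thus share the LSK fraction, and both mutant groups lack p53. The labels give no strain, age, number of animals or lineage antibody panel. With 1 array per genotype no difference below has an error, and none was tested.

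Neutrophil precursors fill their granules in order as they mature. Promyelocytes make primary (azurophil) granules, which carry myeloperoxidase and the serine proteases elastase, cathepsin G and proteinase 3. Myelocytes and metamyelocytes then make secondary (specific) granules with lactoferrin, cathelicidin and lipocalin 2, and gelatinase granules rich in Mmp9 follow. Transcripts of the primary set can already be found in early granulocyte and monocyte progenitors, whereas those of the later set mark committed granulocyte precursors. The factors PU.1, C/EBP alpha, C/EBP epsilon, Myb and Gfi1 are known regulators of this sequence.

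The sequences in front of these genes are shown because members of a stage stood together across the arrays. RefSeq promoter windows on GRCm38.p6, from 250 bases before to 50 after the start of the gene, were matched by symbol for 9 of 10 members. The 4 primary windows lie at chr10:79886062-79886361 (plus strand) for Elane, chr10:79879417-79879716 (plus strand) for Prtn3, chr11:87793534-87793833 (plus strand) for Mpo and chr14:56102525-56102824 (minus strand) for Ctsg. Those of the later genes Ltf and Mmp8, which encode lactoferrin and the neutrophil collagenase, lie at chr9:111019042-111019341 (plus strand) and chr9:7558179-7558478 (plus strand). Each is written 5′ to 3′ along the gene's own strand. Capitals mark matches on either strand to AGGAAGT, a core bound by PU.1 and other ETS factors, to CAACGG, a Myb core, or to TTNNGNAA, a loose form of the C/EBP site. No matches of different motifs overlapped in these windows.
Elane: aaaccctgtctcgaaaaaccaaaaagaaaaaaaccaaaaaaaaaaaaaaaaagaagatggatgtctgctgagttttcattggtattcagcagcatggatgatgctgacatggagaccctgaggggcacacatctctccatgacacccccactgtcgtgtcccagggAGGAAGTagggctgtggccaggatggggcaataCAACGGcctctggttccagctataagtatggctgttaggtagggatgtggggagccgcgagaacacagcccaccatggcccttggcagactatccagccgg
Prtn3: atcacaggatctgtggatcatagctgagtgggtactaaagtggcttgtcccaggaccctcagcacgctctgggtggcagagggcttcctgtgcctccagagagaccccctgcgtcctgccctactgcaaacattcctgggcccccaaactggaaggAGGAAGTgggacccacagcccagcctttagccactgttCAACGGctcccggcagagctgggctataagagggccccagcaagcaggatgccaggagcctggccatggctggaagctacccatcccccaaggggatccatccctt
Mpo: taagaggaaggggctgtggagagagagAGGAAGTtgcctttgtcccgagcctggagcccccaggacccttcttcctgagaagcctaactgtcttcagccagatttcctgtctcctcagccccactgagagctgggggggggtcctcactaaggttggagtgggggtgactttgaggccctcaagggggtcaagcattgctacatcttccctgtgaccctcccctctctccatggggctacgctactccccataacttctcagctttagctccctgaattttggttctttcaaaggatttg
Ctsg: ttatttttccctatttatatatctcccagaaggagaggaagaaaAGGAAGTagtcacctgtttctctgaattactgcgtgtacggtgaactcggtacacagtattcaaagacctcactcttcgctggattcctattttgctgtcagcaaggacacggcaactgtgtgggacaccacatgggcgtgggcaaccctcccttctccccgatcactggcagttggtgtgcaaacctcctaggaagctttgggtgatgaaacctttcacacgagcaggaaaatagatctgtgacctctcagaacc
Ltf: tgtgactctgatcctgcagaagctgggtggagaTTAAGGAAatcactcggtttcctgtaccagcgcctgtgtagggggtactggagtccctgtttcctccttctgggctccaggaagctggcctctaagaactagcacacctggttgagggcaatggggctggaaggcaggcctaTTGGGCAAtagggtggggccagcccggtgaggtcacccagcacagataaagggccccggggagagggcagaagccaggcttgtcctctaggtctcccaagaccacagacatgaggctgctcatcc
Mmp8: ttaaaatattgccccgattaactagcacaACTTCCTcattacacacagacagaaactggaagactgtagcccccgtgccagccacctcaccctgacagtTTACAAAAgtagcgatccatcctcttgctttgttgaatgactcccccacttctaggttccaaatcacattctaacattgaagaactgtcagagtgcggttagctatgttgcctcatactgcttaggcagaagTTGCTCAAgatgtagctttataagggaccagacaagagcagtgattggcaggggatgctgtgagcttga

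The letters AGGAAGT were found in 4 of 4 primary windows and in 1 of 5 later ones, that of Mmp8, against 9.35% of 32851 windows of the same length. In Elane and Prtn3, which lie next to each other in the genome, the match began at positions -84 and -94 from the gene start, and a CAACGG followed at -51 and -56. In Mpo and Ctsg AGGAAGT lay farther out, at -223 and -206, with no CAACGG, whose share over all windows was 5.12%. The loose C/EBP form was found in 4 of 5 later windows, all but that of Camp, and in 0 of 4 primary ones. It is short and was present in 40.7% of all windows. The motifs were chosen after the windows had been seen, so these counts describe the windows and are no evidence of binding.

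Across the whole arrays, 47.3% to 53.8% of probe sets reached the floor. Signals are given throughout in the order WT, p53 KO, DKO. Those of Elf4 were 57.4, 182 and 151, so the gene gave no check of the DKO label, and whether its probe sets lie in the deleted part is not stated. The level of p53 was not analysed here. The LSK marker Kit, the receptor for stem cell factor, had signals of 4996, 2522 and 4873. Of 12 stem and progenitor markers with a named probe set, 12 reached the floor on every array. Sca-1, encoded by Ly6a, was not analysed here.

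The 2 stages parted on the DKO array. All 4 primary granule genes had their lowest signal on the WT array and were higher on both p53-null arrays, by a median of 1.96-fold on p53 KO and 2.40-fold on DKO. All 6 later granule genes were highest on the p53 KO array and lowest on the DKO array. The order DKO below WT below p53 KO thus held for 6 of 6 later and 0 of 4 primary genes, beside 12.2% of all measured genes. The order WT below p53 KO below DKO held for 4 of 4 primary and 0 of 6 later genes, beside 17.3%, although for Mpo the mutant arrays were nearly level. These are sums over all cells of a sample, so fewer cells of a type and less RNA per cell cannot be told apart.

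**Figure D1:**
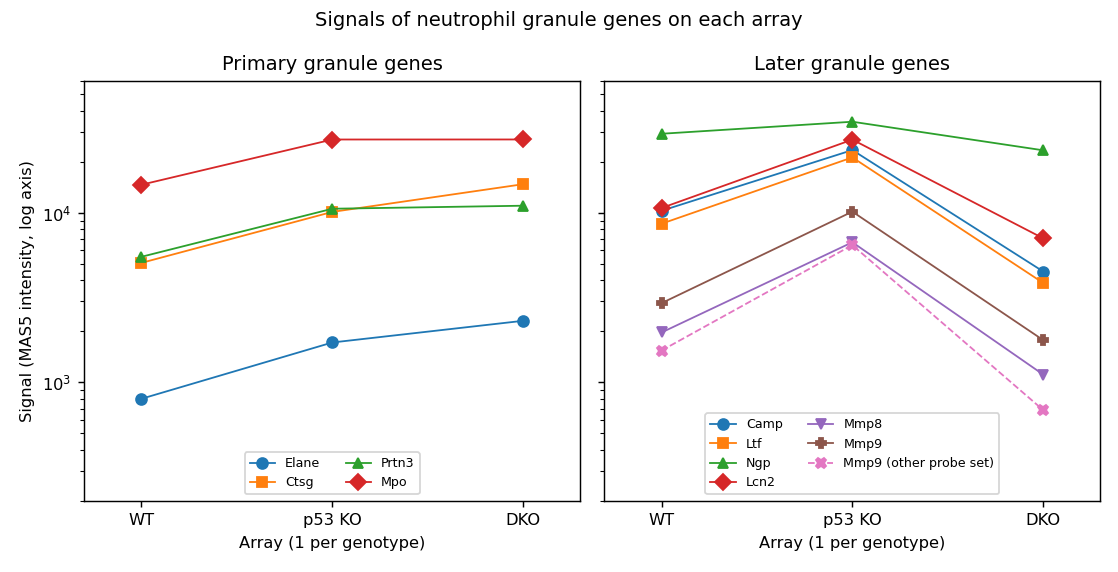
Signal of each probe set (MAS5 intensity, log axis) by genotype, with primary granule genes on the left and later granule genes on the right. Points are single arrays and lines only join the points of a probe set, dashed for the other Mmp9 probe set. Primary genes were lowest on WT, and later genes were highest on p53 KO and lowest on DKO.

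Among the primary granule proteases, Elane, which encodes neutrophil elastase, had signals of 800.1, 1719 and 2308. Ctsg, which encodes the chymotrypsin-like protease cathepsin G, had signals of 5071, 10135 and 14769.9. Both were thus lowest on WT and highest on DKO, with log2 differences from WT of 1.10 and 1.53 for Elane and 0.999 and 1.54 for Ctsg. Of all measured genes, 99.1% had a lower value than either on DKO against WT. Prtn3, which encodes proteinase 3, the Elane neighbour with the matching promoter letters shown above, had signals of 5508, 10581 and 11025. Its mutant arrays were close, and its log2 differences from WT were 0.94 and 1.001.

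Mpo encodes myeloperoxidase, which makes hypochlorous acid in the phagosome, and had signals of 14665, 27108 and 27120.2. Its signals on the mutant arrays were level, and both were 1.85-fold above WT. Only 90 and 72 probe sets were brighter than Mpo on p53 KO and DKO respectively. Whether so bright a probe set can still show a difference in full was not tested.

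Among the antimicrobial proteins of secondary granules, Camp, which encodes the cathelicidin precursor, had signals of 10292, 23481 and 4509. Ltf, which encodes the iron-binding protein lactoferrin, had signals of 8630.15, 21251 and 3861. Lcn2, which encodes the siderophore-binding lipocalin 2, had signals of 10687, 27069.6 and 7079. For each the p53 KO signal was the highest and the DKO signal the lowest. Log2 differences on p53 KO against WT were 1.19, 1.30 and 1.34 for Camp, Ltf and Lcn2, and on DKO against WT they were -1.19, -1.16 and -0.59.

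Ngp, which encodes a neutrophilic granule protein related to cathelicidins and cystatins, followed the same order over a narrower range, at 29306.5, 34514 and 23406. Its log2 differences from WT were 0.24 and -0.32. It was the brightest member, with 74, 19 and 137 probe sets above it. As for Mpo, a loss of range at such signals was not tested.

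The matrix metalloproteases of later granules spanned the widest ranges between arrays. Mmp8, the neutrophil collagenase, had signals of 1969, 6711 and 1112. Mmp9, or gelatinase B, was the member with 2 probe sets. Its brighter probe set read 2933, 10173 and 1776, and the other read 1541, 6458 and 686, so both gave the same order of arrays. Log2 differences on p53 KO against WT were 1.77 for Mmp8 and 1.79 and 2.07 for the Mmp9 probe sets. The same differences were -0.82, -0.72 and -1.17 on DKO.

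**Figure D2:**
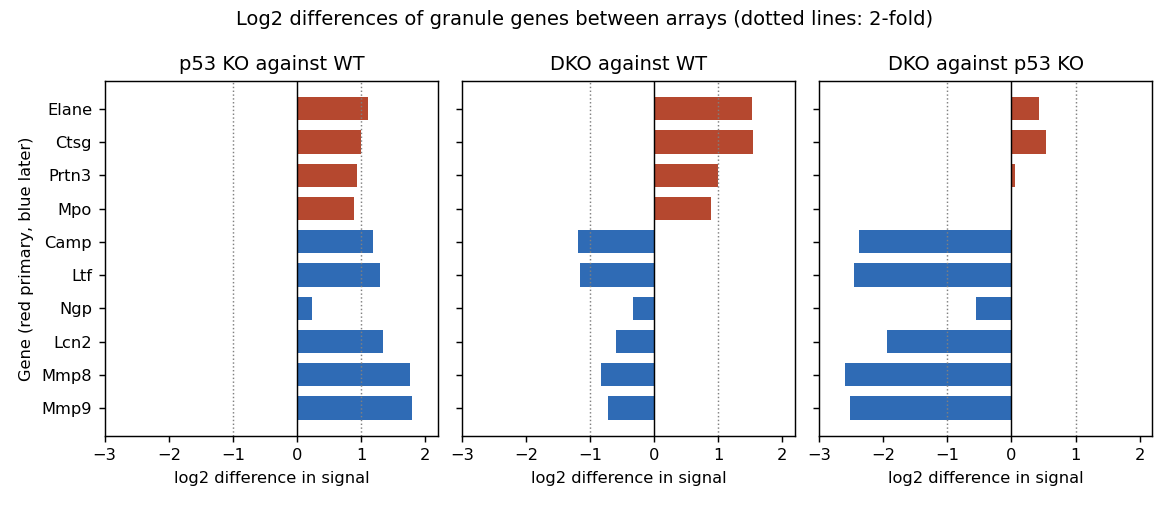
Log2 differences in signal of the 10 genes for each pair of arrays, red for primary and blue for later granule genes, with dotted lines at 2-fold. For DKO against WT the bars of the stages point in opposite directions, primary from 0.89 to 1.54 and later from -1.19 to -0.32.

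The p53 KO array was set against WT to ask what the loss of p53 changes. All 10 granule genes were higher on p53 KO, with a median log2 difference of 0.97 for the primary genes (range 0.89 to 1.10) and 1.32 for the later genes (range 0.24 to 1.79). Over all 12597 measured genes the median was 0. Of the primary genes 1 of 4, Elane, was at least 2-fold higher, and of the later genes 5 of 6 were, all but Ngp, where 6.51% of all measured genes were. Ctsg stood just short of that at 1.999-fold, and with cyclic loess normalization 3 of 4 primary genes passed. No member was at least 2-fold lower (3.19% of all genes). The ranges of the stages overlapped, and the primary median lay 0.35 below the later one.

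The DKO array was set against WT to ask what loss of both factors changes. Here the stages did not overlap. The primary median was 1.26 (range 0.89 to 1.54) and the later median -0.77 (range -1.19 to -0.32), a gap of 2.04 on the log2 scale, and the median of all genes was 0.07. At least 2-fold higher were 3 of 4 primary genes, all but Mpo, and 0 of 6 later genes, beside 5.22% of all genes. At least 2-fold lower were 2 of 6 later genes, Camp and Ltf, and 0 of 4 primary genes, beside 3.10%. Prtn3 passed by a narrow margin, at 2.002-fold.

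The DKO array was set against p53 KO to ask what further loss of Mef changes without p53. The comparisons share their arrays, so these values follow from those already given. The later genes were lower, by a median of -2.42, or 5.35-fold, with Mmp8 at -2.59, Mmp9 at -2.52, Ltf at -2.46, Camp at -2.38, Lcn2 at -1.94 and Ngp at -0.56. The primary genes were close to level or slightly higher, with Ctsg at 0.54, Elane at 0.43, Prtn3 at 0.06 and Mpo at 0.00065. At least 2-fold lower were 5 of 6 later and 0 of 4 primary genes, beside 5.93% of all genes, and none of the 10 was at least 2-fold higher (4.10%). Mmp8 had rank 53 from the lowest of all measured genes and Mmp9 rank 61. The other Mmp9 probe set was lower still at -3.23, which would stand at rank 19. The same 5 later genes, all but Ngp, were at least 2-fold higher on p53 KO than on WT and at least 2-fold lower on DKO than on p53 KO, beside 3.56% of all genes. The median of all genes was 0.11, and 0.0055 with cyclic loess. Relative to the former, the primary median was 0.13 and the later median -2.53.

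**Figure D3:**
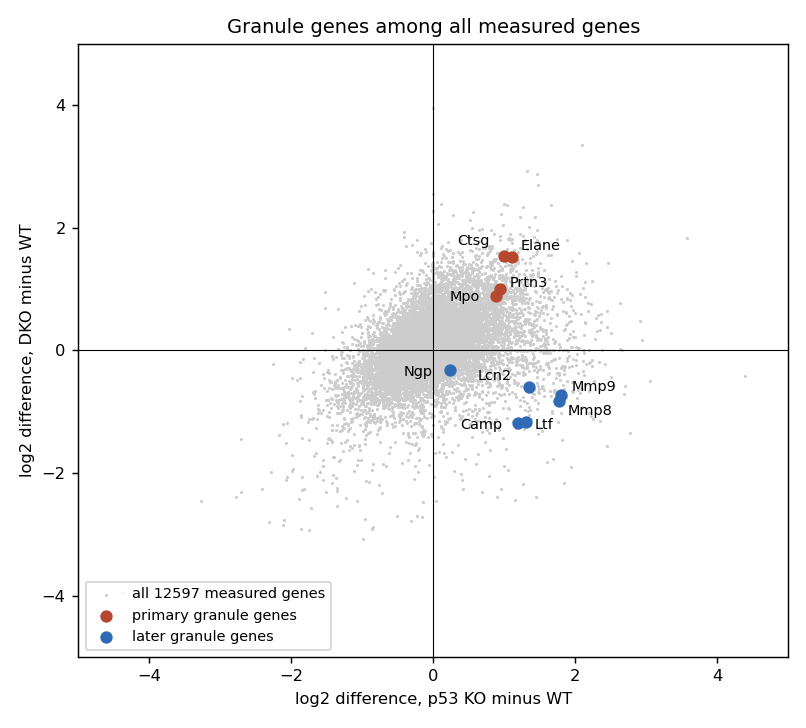
Log2 difference from WT on p53 KO (x axis) and on DKO (y axis) for all 12597 measured genes in grey, with primary granule genes in red and later ones in blue. The primary genes lie at the upper right, above 0 on both axes, and the later genes lie below 0 on the y axis at x values from 0.24 to 1.79. Both axes share the WT array.

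Other genes tied to the same granules were taken from gene lists. Of 16 measured genes of later granules beyond the members, 16 were higher on p53 KO than on WT, with a median of 1.74. At least 2-fold higher were 12, beside 6.51% of all measured genes. The list was led by Lrg1, a glycoprotein of neutrophil granules (3.06), Ltb4r1, a leukotriene B4 receptor (2.33), Cd177, a neutrophil surface glycoprotein (2.26), and Olfm4, an olfactomedin of specific granules (2.10). On DKO against p53 KO 16 of 16 were lower, with a median of -2.22. At least 2-fold lower were 13, beside 5.93% of all measured genes. The list median on DKO against WT was -0.26. None of the 16 reached 2-fold there, where 5.22% of all measured genes were higher and 3.10% lower. The member order of DKO below WT below p53 KO was shown by 12 of the 16, beside 12.2% of all measured genes.

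The list of 9 measured genes linked to primary granules was mixed. Its median was 0.20 on DKO against WT, with 2 at least 2-fold higher, Nkg7, a granule membrane protein of cytotoxic cells, at 1.21 and Ms4a3, a membrane protein of granulocyte and monocyte progenitors, at 1.06. Over all measured genes 5.22% were at least 2-fold higher there. Lyz2, a lysozyme gene whose product enters all granule types, was at -0.71, with signals of 12984, 24628 and 7946. Only Nkg7 showed the order WT below p53 KO below DKO of the primary members, beside 17.3% of all measured genes. On p53 KO against WT the list median was 0.92, with 3 of 9 at least 2-fold higher, beside 6.51% of all measured genes. On DKO against p53 KO it was -0.52, with 3 of 9 at least 2-fold lower, beside 5.93%. Fcnb, which encodes ficolin B, led both (1.91 and -1.71).

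Proteins that process, store or inhibit granule proteases were the third list. Ctsc encodes dipeptidyl peptidase 1, which activates the primary granule proteases, and had signals of 2983, 8612 and 4879. Its 3 probe sets gave log2 differences of 0.63 to 1.53 on p53 KO and 0.27 to 0.71 on DKO against WT. Srgn, whose product serglycin packs proteases in the granule, was level at 11954, 11306 and 11722. The inhibitor genes Serpinb1a (1.33) and Slpi (1.66), which act on neutrophil elastase, were at least 2-fold higher on p53 KO against WT. They stood at 0.77 and -0.17 on DKO against WT. Of 11 measured genes 4 were at least 2-fold higher on p53 KO than on WT, beside 6.51% of all measured genes. Timp2 was among them, but its probe sets ran from 0 to 1.18. On DKO against WT 1 of the 11 was, beside 5.22%, namely Cst7 (1.49), a cystatin that inhibits cathepsin C.

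Transcriptional regulators of granulocyte genes were mixed. Spi1, which encodes PU.1, had signals of 368 on WT, 618 on p53 KO and 837 on DKO, the order of the primary granule genes. Cebpa, which encodes C/EBP alpha, was below the floor on WT at 96.5 and read 252 and 297, so it was at least 1.19 and at least 1.43 higher on the log2 scale. By contrast Cebpd, at 649, 1785 and 569, and Klf5, at 153, 508 and 126, had the order of the later granule genes, as did Cebpb at 155, 354 and 120. Other probe sets of Cebpd and Klf5 gave smaller differences on p53 KO against WT, from -0.14 to 1.46 for Cebpd and from 0.99 to 1.73 for Klf5. On DKO against WT the Klf5 probe sets ran from -0.28 to 0.77. The later order of these genes thus did not hold for every probe set. Of 14 measured regulators 6 showed the primary order and 3 the later order, beside 17.3% and 12.2% of all measured genes. Runx1 and Per3 were among those with the primary order. Their probe sets reached down to -0.34 and -0.45 on p53 KO against WT, so that order did not hold for every probe set either. Gfi1, Irf8 and Myb showed neither with the probe sets used. Gfi1 had signals of 528, 1323 and 1153, Irf8 1798, 4541 and 3816, and Myb 13847, 12201 and 14378. On DKO against p53 KO 4 of 14 were at least 2-fold lower, Klf5 (-2.01), Cebpd (-1.65), Cebpb (-1.56) and Ets1 (-1.45), beside 5.93% of all measured genes. None was higher by that measure (4.10%), though other probe sets of Runx1 and Myb reached 1.49 and 1.20. For the lower genes, other probe sets gave values as small as -0.22 for Klf5, -0.27 for Cebpd and -0.12 for Ets1. Cebpe was not analysed here.

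Markers of mature neutrophils were highest on p53 KO, as the later granule genes were, but as a list they were less low on DKO against WT. Of 15 measured markers, 15 were higher on p53 KO than on WT, 11 by at least 2-fold with a median of 1.42. On DKO 15 were lower than on p53 KO, 10 by at least 2-fold. Over all measured genes 6.51% and 5.93% passed 2-fold in these directions. The marker median on DKO against WT was -0.11, with 9 lower and 6 higher, where the later members had -0.77 with 6 of 6 lower. The 9 lower markers had the order of the later granule genes, beside 12.2% of all measured genes. The other later granule genes, at a median of -0.26 on DKO against WT, were also less low than the members. Cxcr2, a chemokine receptor of mature neutrophils, had signals of 291, 858 and 174. S100a9, a subunit of the abundant cytosolic protein calprotectin, had 18179, 35254 and 10934. Both were lowest on DKO, whereas Alox5ap, which supports leukotriene synthesis, had 4744, 10625 and 7972.5 and Padi4, a histone-modifying enzyme of neutrophils, had 477, 1274 and 721. Summed signal over the list was 65469, 115408 and 53852. An LSK gate removes cells with lineage markers, but how complete the depletion was is not stated. The part of mature neutrophils in the granule gene values was not tested.

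Markers of other lineages stood beside these values on the same arrays. Over 13 monocyte and macrophage markers, summed signal was 16226 on WT, 52545 on p53 KO and 21676 on DKO. At least 2-fold higher on p53 KO than on WT were 11, beside 6.51% of all measured genes. B cell markers summed to 2319, 8881 and 3689, with 9 of 10 at least 2-fold higher on p53 KO, beside the same 6.51%. For these lists 13 of 13 and 10 of 10 genes were higher on p53 KO than on WT. Over 10 megakaryocyte markers the sums were 5040.27, 14431 and 8656, and 10 of 10 were higher on p53 KO than on WT, though 3, Itga2b, Gp1bb and Selp, were highest on DKO. Erythroid markers summed to 85200.1, 99223 and 23219.9 over 10 genes, and of 9 measured 5 were higher and 4 lower on p53 KO than on WT, Car1 at -1.42 among the latter, while 9 of 9 were lower on DKO. For eosinophils, mast cells and basophils the sums were 7946, 12024 and 5053 over 9 genes, of which Gata1, also an erythroid factor, gave 4923, 3855 and 1422. The list median log2 difference was 0.0076 on p53 KO against WT. In this list the eosinophil granule genes Prg2 and Epx had the later order and the mast cell protease gene Cpa3 was highest on DKO. T and NK markers summed to 2122, 2955 and 3589, most of it from Nkg7 (1176, 1667 and 2724), which is also on the list linked to primary granules. The T and NK markers Cd3e, Cd3g, Cd4 and Ncr1 were below the floor on every array. Stem and progenitor markers summed to 27086, 23345 and 44708, and Cd34 and Flt3 were among those highest on DKO. Of 12 such markers 11 were higher on DKO than on WT and 10 higher on DKO than on p53 KO. Kit was highest on WT, and Mecom and Procr were highest on p53 KO. The part of any of these cells in the granule gene values was not tested.

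**Figure D4:**
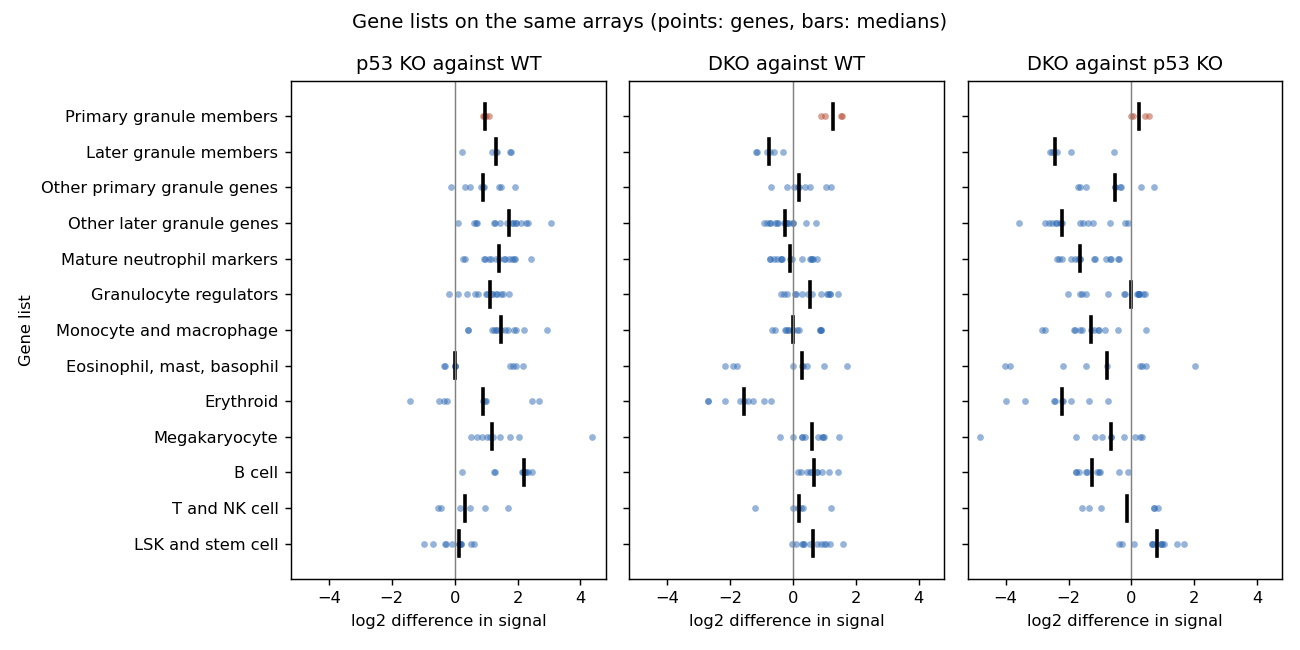
Log2 differences of each measured gene of 13 lists (points) with the list median (bar) for the 3 pairs of arrays. Primary granule members are red and all other lists blue. On DKO against WT the primary members sit above 0 and the later members below it, and on p53 KO against WT the monocyte, megakaryocyte and B cell medians lie to the right of 0.

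The genes nearest to each stage in pattern were found by the distance between their pair of log2 differences from WT and the stage medians, over 3 arrays and 7697 candidate genes. For the primary stage they were Tspyl4, Vat1, Bgn, which encodes the matrix proteoglycan biglycan, Adamts10 and Plek, which encodes the platelet and leukocyte protein pleckstrin, at distances of 0.039 to 0.059. The 4 members themselves lay 0.27 to 0.39 from their medians, and 128 other genes lay within the larger distance. For the later stage the nearest were Cpeb3, Ifit1bl2, Mcemp1, a membrane protein of myeloid cells, Specc1 and Dhrs11, at 0.058 to 0.11. The later members lay 0.18 to 1.17 from their medians, the latter for Ngp, and 865 other genes lay within that distance. Many genes thus lay as close to the primary medians as the members did. The later distance was set by Ngp and is wide enough to take in genes without the later order. The count of 865 is therefore not a count of genes that shared it.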

How the data were processed

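Expression was measured on 3 Affymetrix arrays, 1 per genotype of mouse LSK cells. The deposited table holds linear signal intensities that the authors made with GCOS and MAS5, per the submitters' processing notes, with no version stated. The 2% trimmed mean was 500 on each array, so global scaling had been applied. Per the labels' protocols, RNA was purified with RNeasy and labelled with biotin by the one cycle kit. Here signals under 110.4 were raised to that floor before taking log2, in Python 3.11.15 with pandas 2.3.3. For each gene the brightest probe set annotated to that gene alone was used, with symbols updated through the Entrez ID to RefSeq GRCm38.p6 (34754 probe sets). Differences past 2-fold were counted in 3 comparisons with no test. A difference from an array under the floor is a bound, written as "at least". The small number of arrays limits the precision.

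The members and the 17 gene lists were chosen with earlier results of these data known. Named were all members, up to 4 genes of each list with the largest differences, the 5 genes nearest to each stage in pattern among those whose brightest signal reached 448.4, the flanking genes of each member, and Elf4. Further genes, such as Kit, Lyz2, Cxcr2, S100a9, Ctsc, Srgn, Cd34, Flt3 and the regulators, were named after their values were seen. Alternatives were rescaling, quantile and cyclic loess normalization (limma 3.58.1, 3 iterations), floors at the 25th and 75th percentiles, a pseudocount of 32 without floor, other probe set rules, and 1.5-fold or 3-fold thresholds. The code was first tested on simulated data.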

Additional observations from a re-analysis of the deposited data

How the results depend on the processing

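Each median of a stage, each gap between stages and each member's log2 difference kept its direction and moved by less than 0.58, which is 1.5-fold, under rescaling, quantile normalization, cyclic loess, the 3 settings of the floor and both other probe set rules. Several of these settings could not move the members. Every member was above the 75th percentile of 448.4 on each array, so neither other floor touched it. The trimmed mean was already 500 on each array, so rescaling changed nothing. The probe set rules could only change Mmp9 or leave out Lcn2. The steadiness thus rests mainly on quantile normalization and cyclic loess. On DKO against WT the gap ranged from 2.005 to 2.15, and on DKO against p53 KO from 2.62 to 2.70. Lcn2 had no value with probe sets unique to a transcript, as its ID carries a suffix. Counts past the threshold moved more. Primary genes at least 2-fold higher on p53 KO than on WT were 1 as reported, 2 with quantile normalization and 3 with cyclic loess, and with thresholds of 1.5-fold and 3-fold 4 and 0. At 3-fold, 2 later genes were higher on p53 KO than on WT, and on DKO against WT 0 primary genes were higher and 0 later genes lower. At 1.5-fold, 5 later genes were lower on DKO than on WT. Of all 12597 measured genes, 1936 were at least 1.5-fold and 230 at least 3-fold higher on p53 KO than on WT. On DKO against WT 1199 were at least 1.5-fold lower, and at 3-fold 95 were higher and 106 lower. At 2-fold, 820 were higher on p53 KO than on WT, with 764 of 12530 after quantile normalization and 862 of 12457 after cyclic loess. The changed threshold accounts for the member counts at 1.5-fold and 3-fold by construction, and for the normalizations the cause was not tested. Over all measured genes, DKO against WT gave 657 higher and 390 lower, but 462 and 473 with quantile normalization and 432 and 487 with cyclic loess. For DKO against p53 KO the split was 517 and 747, and with cyclic loess 317 and 877. No paired analysis was possible because each genotype had 1 array. An effect of genotype, of the sort and of the animal cannot be told apart here.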

Other observations

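Genes of the same protein families that are not neutrophil granule products were mostly near or under the floor. Of 14 other matrix metalloproteases with a named probe set, 8 reached the floor on at least 1 array. None of the probe sets used gave a value 2-fold or more above WT, but the other Mmp2 probe set reached 1.05 on DKO. Mmp16 was under the floor on WT at 28.1 and read 154 and 208, so its log2 differences of at least 0.48 and at least 0.91 leave its side of 2-fold unknown. The differences of other members under the floor on WT are such bounds too. Mmp14, a membrane-bound matrix protease, and Mmp2 were the brighter exceptions. Mmp14 was lower on both p53-null arrays, with signals of 1518 on WT, 353 on p53 KO and 222 on DKO. Mmp2 read 547, 427 and 770. Among 11 relatives of the serine proteases, 6 were measured. Mcpt8, a basophil protease whose gene adjoins Ctsg, had signals of 193, 652 and 381, and Gzma, a granzyme of cytotoxic cells, was below the floor on WT at 107 and read 361 and 122. Hpn, a membrane serine protease, was lower on both p53-null arrays, at 806, 123 and 162. Lpo, the peroxidase gene next to Mpo, was below the floor on every array at 18.8, 33.0 and 35.7.

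Some genes that flank the members in the RefSeq order differed in the same direction as the member beside them, and others did not. Of 18 flanking genes that are not members, 14 were measured. On p53 KO against WT 3 of them were at least 2-fold higher, Mcpt8 (1.75), Ccrl2, a chemerin receptor gene beside Ltf (1.58), and Tspoap1 beside Mpo (1.22), beside 6.51% of all measured genes. On DKO against WT only Tspoap1 was, at 2.18, beside 5.22% of all measured genes. Its signals were 244 on WT, 569 on p53 KO and 1109 on DKO. Mcpt8 stood just short of 2-fold there, at 0.98. Plppr3, Mmp10 and Mmp20 were under the floor on WT, so their differences are lower bounds that leave their side of 2-fold unknown. On DKO against p53 KO 1 of the 14, Ccrl2, was at least 2-fold lower (-1.40), beside 5.93% of all measured genes. Med16, which follows Elane, was level at 965, 906 and 972. Nme6 and Cdc25a, on either side of Camp, had log2 differences of 0.17 and -0.55 on DKO against WT, where Camp was at -1.19.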
